A study of Mus musculus with 8 samples.

Results

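Genes that act at replication origins and forks were measured in 4T1 cells, a cultured line derived from a mouse mammary tumor. The set held 45 genes, picked by name from a list of replication factors when earlier results of these data were known. All 45 were found among the 23215 genes with both kinds of deposited value. All 45 also passed the filter on low genes, which left 15746 genes to be tested. The cells were wild type by label. The Ctrl group (n = 4, replicates 1 to 4) received SKL2001 overnight, a small molecule described as an activator of β-catenin signaling. The Hypo group (n = 4, replicates 2 to 5) received the same compound together with decitabine, a cytidine analog that traps DNA methyltransferases once it is built into DNA, and these cells are called hypomethylated here. Cells without SKL2001 were not analysed here, so the comparison is of decitabine against no decitabine in SKL2001-treated cells of a single line, and the sources do not say whether each library was a culture of its own.

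Each origin is bound by the origin recognition complex, which works with Cdc6 and Cdt1 to place the ring-shaped Mcm helicase on DNA before S phase, a step that geminin blocks once S phase has begun. Cdc45 and the GINS complex then switch the helicase on, DNA polymerase alpha with its primase lays down short primers, and clamp loaders place the sliding clamp Pcna so that polymerases epsilon and delta can copy the leading and lagging strands. In dividing cells, E2F transcription factors drive many of these genes together at the start of S phase.

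The libraries held between 27486245 and 39388394 reads assigned to genes, and the lowest value of any of the 45 genes was 195 reads in a library. Levels are given as normalized counts, which are reads divided by the size factor of a library, and differences are Hypo minus Ctrl on the deposited variance-stabilized scale, which is log2-like and compresses the differences of the less abundant members. The epithelial markers Epcam, Krt8, Krt18, Krt19, Cdh1 and Cldn7 were all detected, with summed normalized counts of 94543 to 102842 in Ctrl and 91613 to 104124 in Hypo. Ctrl replicate 3 stood apart from the other Ctrl libraries. Its summed level of 16 integrated stress response genes was 110705 normalized counts against 61716 to 83649 in the other 7 libraries, so results are also given without it.

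Genes in 6 of the 8 roles of the replication machinery rose in hypomethylated cells, each by a small amount. Of the 45 genes, 16 rose, 0 fell and 29 missed the threshold (limma on all 15746 genes, Benjamini-Hochberg adjusted p below 0.05), whereas 14.1% of all tested genes rose and 8.75% fell. No member was lower at an unadjusted p below 0.05 either, where 24 members were higher. The share of all tested genes at that threshold is not given, so unadjusted counts of members stand without a background here and below. With edgeR and with DESeq2, 16 members were called higher and 0 lower (edgeR called 13.8% of all tested genes higher and 9.63% lower). The largest rises were those of Orc6 (1.39-fold), Dscc1 (1.38-fold) and Cdc45 (1.33-fold), and none of the 45 genes reached a 1.5-fold change. The median difference of the members was 0.16, beside 0.0035 for all tested genes and -0.024 for the 9675 tested genes whose levels lay in the range of the members. In that range of levels 8.22% of genes rose and 12.1% fell. In 17 of 45 members the lowest Hypo library exceeded the highest Ctrl library (15.4% of all tested genes), and in 0 members the highest Hypo library was below the lowest Ctrl library (10.3%). In these bulk libraries, more cells in S phase and more RNA per cell cannot be told apart.

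Without Ctrl replicate 3 the number that rose was again 16, of which 14 were shared, with Cdt1 and Pola1 in place of Mcm10 and Rfc5. Orc1 was then lower, and the background shares were 17.4% higher and 13.3% lower. Leaving out other libraries gave 10 to 15 members that rose, with the lowest count of 10 without Hypo replicate 3. After quantile normalization 21 members rose and 0 fell, although the balance over all tested genes moved from 2219 higher and 1378 lower to 1818 higher and 1962 lower.

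**Figure D1:**
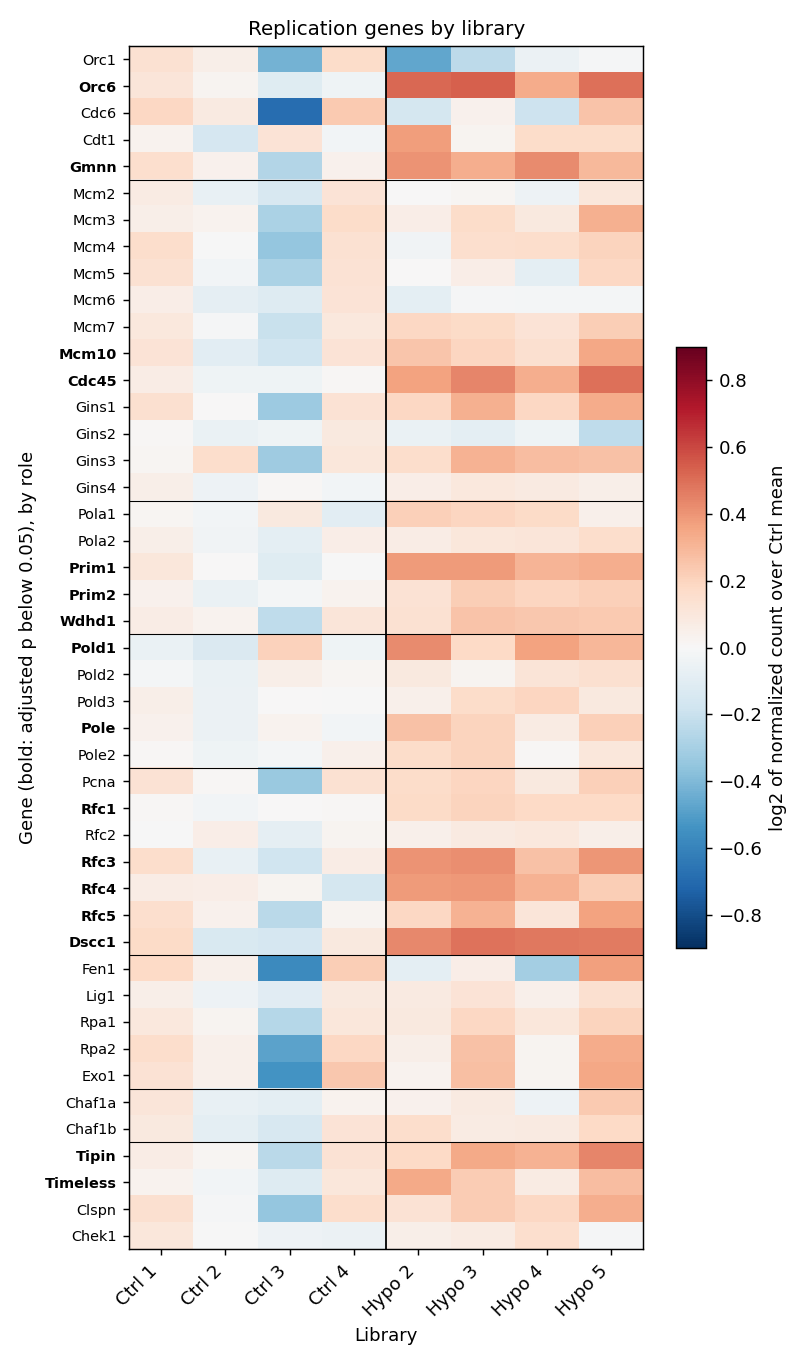
Heat map of the 45 genes (rows, grouped by role) in the 8 libraries (columns). Color gives the log2 ratio of the normalized count to the Ctrl mean of that gene, and bold names passed the test. Ctrl replicate 3 has the lowest of the 8 values in 31 rows, and the darkest Hypo cells belong to rows such as Orc6, Cdc45 and Dscc1.

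Promoter sequences are shown because the windows printed here of 3 genes that rose hold no E2F-type run of letters, while those of 2 genes of the Mcm ring that did not pass hold several. Other genes went the other way: Mcm2, which did not pass, holds no match in its window, and Rfc3, which rose, holds 2 of the 8-letter matches. RefSeq windows (GRCm38.p6) of 250 bases before and 50 bases after the start were at hand for 34 of the 45 genes. They were searched on both strands for TTGGCGC (in 2.45% of all 32851 windows), TTCCCGC (in 4.6%), TTGCCGC (in 1.81%) and TTCGCGC (in 1.59%), and matches can overlap one another. A match was present in 24 of 34 members (70.6%), in 10.9% of all 27025 genes with a window and in 2084 of 10966 tested genes with one. The 8-letter forms with a further T in front, which are TTTGGCGC (in 0.514% of all windows), TTTCCCGC (in 1.07%), TTTGCCGC (in 0.441%) and TTTCGCGC (in 0.323%), were present in 15 of 34 members (44.1%), in 2.60% of all genes with a window and in 4.58% of tested genes. Among the 11 members with a window that rose, 6 held a 7-letter and 2 an 8-letter match. Among the 23 that did not pass, 18 and 13 did. These letters and the 5 printed windows were picked after the values were seen, a match is a description and not a binding site, and the counts carry no test. The CpG dinucleotide, the site of DNA methylation in mammals, occurred at a median of 24 per window in the members, 21 in tested genes and 8 in all genes. The 250 bases before the start are printed 5′ to 3′ on the strand of the gene for the genes Orc6, Cdc45 and Rfc4, which rose, and for Mcm5 and Mcm6, which did not pass. Capitals mark 7-letter matches on either strand, with overlapping matches merged. They are absent from the windows of the 3 genes that rose, while Mcm5 held 3 matches and Mcm6 held 4. Rfc4 has 1 match in the 50 bases after its start, which are not printed. Of the printed windows, that of Orc6 held 24 CpG and that of Cdc45 held 11. Orc6 lies at chr8:85299382-85299631 (plus strand), Cdc45 at chr16:18811973-18812222 (minus strand), Rfc4 at chr16:23127731-23127980 (minus strand), Mcm5 at chr8:75109259-75109508 (plus strand) and Mcm6 at chr1:128359706-128359955 (minus strand).
Orc6: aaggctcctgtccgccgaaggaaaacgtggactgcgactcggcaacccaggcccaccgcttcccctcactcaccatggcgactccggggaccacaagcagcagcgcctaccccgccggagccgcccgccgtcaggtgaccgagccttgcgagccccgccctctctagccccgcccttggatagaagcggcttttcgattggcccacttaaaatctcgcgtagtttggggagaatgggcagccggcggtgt
Cdc45: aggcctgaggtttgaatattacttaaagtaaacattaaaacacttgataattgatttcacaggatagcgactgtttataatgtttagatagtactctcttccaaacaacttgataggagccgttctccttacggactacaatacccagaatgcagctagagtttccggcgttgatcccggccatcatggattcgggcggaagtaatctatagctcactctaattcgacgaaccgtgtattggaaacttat
Rfc4: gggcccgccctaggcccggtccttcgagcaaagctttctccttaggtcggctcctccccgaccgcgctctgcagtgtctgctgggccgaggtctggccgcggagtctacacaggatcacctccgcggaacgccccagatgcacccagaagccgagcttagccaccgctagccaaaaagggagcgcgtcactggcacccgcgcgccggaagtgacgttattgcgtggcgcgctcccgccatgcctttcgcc
Mcm5: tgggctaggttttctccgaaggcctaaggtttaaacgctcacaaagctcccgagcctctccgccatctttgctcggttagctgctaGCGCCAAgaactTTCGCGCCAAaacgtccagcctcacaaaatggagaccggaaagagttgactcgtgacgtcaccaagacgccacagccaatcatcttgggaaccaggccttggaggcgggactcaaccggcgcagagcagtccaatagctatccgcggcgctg
Mcm6: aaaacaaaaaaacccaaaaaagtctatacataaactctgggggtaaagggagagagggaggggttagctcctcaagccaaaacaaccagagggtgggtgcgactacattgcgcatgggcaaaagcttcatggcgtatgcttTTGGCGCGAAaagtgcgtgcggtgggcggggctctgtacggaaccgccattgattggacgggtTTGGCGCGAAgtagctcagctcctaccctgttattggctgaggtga

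Origin licensing genes split between 2 that rose and 3 that did not pass. Orc6, which encodes the smallest subunit of the origin recognition complex (ENSMUSG00000031697, chromosome 8, 85299632 to 85308278, GRCm38), stood at 2099, 1982, 1809 and 1894 normalized counts in Ctrl replicates 1 to 4 and at 2782, 2822, 2455 and 2750.2 in Hypo replicates 2 to 5. The lowest Hypo library thus exceeded the highest Ctrl library. Its mean rose from 1946 ± 124 to 2702 ± 167 (SD, n = 4), and the difference was 0.43 ± 0.06 (SE), with a limma adjusted p of 2.1e-04. Gmnn, which encodes geminin, the inhibitor of Cdt1 (chromosome 13, 24751845 to 24761923), stood at 1199.9, 1112, 900.2 and 1109.6 in Ctrl and at 1429.7, 1353, 1453 and 1325 in Hypo. Again the groups did not overlap, and the 1.29-fold rise (difference 0.31 ± 0.07) had a limma adjusted p of 0.0067. Both genes rose in all 21 alternatives tried.

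The other licensing genes were less uniform. Cdt1, the loading factor that geminin inhibits, stood at 3288, 2892, 3502 and 3157 in Ctrl and at 4159.6, 3264, 3606 and 3602 in Hypo. It missed the threshold (difference 0.17, limma adjusted p = 0.11), but it was higher without Ctrl replicate 3, its highest Ctrl library (difference 0.21, adjusted p = 0.032, range 0.029 to 0.32 over all alternatives). Orc1, an ATP-binding subunit that recruits the rest of the complex, stood at 842, 796, 571 and 861 in Ctrl and at 554, 652, 742 and 760.3 in Hypo. The groups overlapped through Ctrl replicate 3, and the difference of -0.13 (95% interval -0.35 to 0.09) missed the threshold (limma adjusted p = 0.39). Without that library all 4 Hypo values lay below the 3 Ctrl values and Orc1 was called lower (difference -0.23, adjusted p = 0.031, range 0.013 to 0.72 over all alternatives), the single member with such a call. Cdc6, which loads the helicase beside Cdt1, stood at 1202, 1119, 657 and 1243 in Ctrl and at 946, 1083, 926 and 1262 in Hypo. Ctrl replicate 3 was its lowest library at 55.4% of the mean of the other Ctrl libraries, and the difference of 0.02 (95% interval -0.29 to 0.33) turned to -0.15 without it.

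Ratios between partner genes are given as descriptions, with no test. The ratio of Orc6 to Orc1 normalized counts was 2.49, 2.49, 3.16 and 2.20 in Ctrl and 5.02, 4.33, 3.31 and 3.62 in Hypo. Every Hypo library lay above every Ctrl library, and Hypo replicate 4 came closest to Ctrl replicate 3. The ratio of Cdt1 to Gmnn was 2.74, 2.60, 3.89 and 2.85 in Ctrl and 2.91, 2.41, 2.48 and 2.72 in Hypo, with Ctrl replicate 3 the highest and the other Ctrl libraries within the Hypo range.

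**Figure D2:**
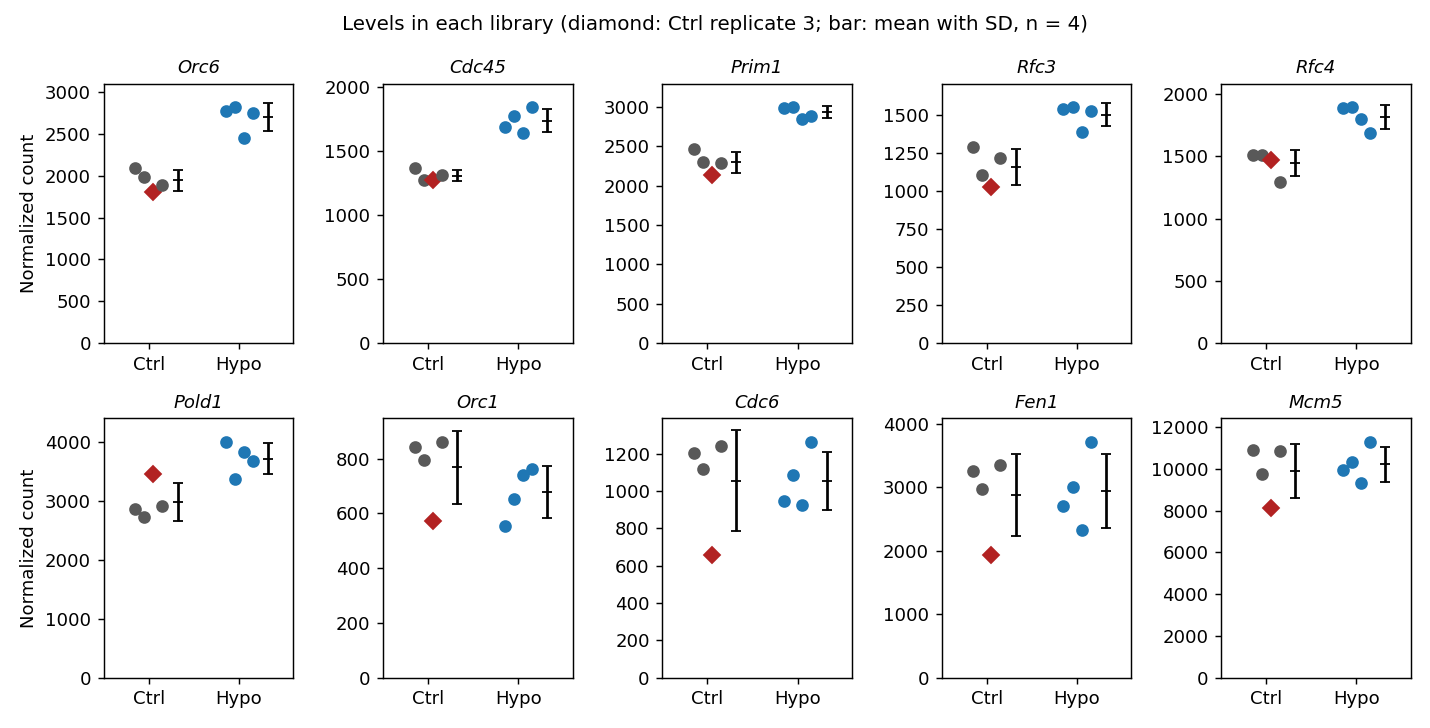
Normalized counts of 10 genes in each library (y axis, starting at 0), with Ctrl replicate 3 as a red diamond and the mean with SD (n = 4) beside the points. Orc6, Cdc45, Prim1, Rfc3 and Rfc4 show groups that do not overlap, while in Cdc6, Fen1 and Mcm5 Ctrl replicate 3 is the lowest of the 8 libraries and in Pold1 the highest Ctrl library.

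The helicase ring showed no passed difference on the deposited values, whereas its activator Cdc45 rose. None of the 6 ring genes Mcm2 to Mcm7 passed in limma, edgeR or DESeq2, and 1 (Mcm7) was higher at an unadjusted p below 0.05. Differences ran from -0.03 for Mcm6 to 0.17 for Mcm7, and their 95% intervals together spanned -0.15 to 0.35, so small rises or falls are not excluded. Ctrl replicate 3 was the lowest of the 8 libraries in all 6, and the median difference of the 6 genes was 0.09 with it and -0.0014 without it. Mcm5, the most abundant of them per kb of exon (2478 in Ctrl and 2556 in Hypo), stood at 10894, 9732, 8112 and 10838 normalized counts in Ctrl and at 9916, 10319.7, 9309 and 11281 in Hypo. The groups overlapped, and the difference was 0.05 (limma adjusted p = 0.73). Mcm7 came closest to a call, with 8318, 7753, 6799 and 8338 in Ctrl and 8869, 8783, 8504 and 9101 in Hypo. Its groups did not overlap, but the difference of 0.17 had a limma adjusted p of 0.063 (0.076 without Ctrl replicate 3, range 0.012 to 0.19 over all alternatives). Mcm2 (1.01-fold), Mcm3 (1.12-fold), Mcm4 (1.09-fold) and Mcm6 (0.977-fold) had limma adjusted p of 0.21 to 0.83. After quantile normalization Mcm3 (limma adjusted p = 0.045, range 0.045 to 0.48 over all alternatives) and Mcm7 were called higher, and Mcm7 also with array weights.

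Cdc45, which travels with the active helicase (ENSMUSG00000000028, chromosome 16, 18780447 to 18811987), stood at 1372, 1278, 1272 and 1318 in Ctrl and at 1687, 1779, 1647 and 1845 in Hypo. The Ctrl libraries lay within a narrow range, Ctrl replicate 3 included, and all Hypo libraries were above it. The mean rose from 1310.1 ± 46.1 to 1739 ± 89.5 (SD, n = 4), a difference of 0.35 ± 0.05 with a limma adjusted p of 2.9e-04, and the rise was called in all 21 alternatives. Mcm10, which helps to start unwinding, went from 1729.6 ± 182 to 2036 ± 125 (difference 0.21, limma adjusted p = 0.043). This call was lost without Ctrl replicate 2, Ctrl replicate 3, Hypo replicate 2, Hypo replicate 3 or Hypo replicate 5 (adjusted p of 0.12, 0.059, 0.10, 0.077 and 0.097).

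The GINS subunits, which join Cdc45 at the helicase, did not pass in any of the 3 tools, with 2 of 4 higher at an unadjusted p below 0.05. Gins1 (454 ± 64.6 and 544 ± 31.0) and Gins3 (893 ± 124 and 1065 ± 47.2) had non-overlapping groups and limma adjusted p of 0.084 and 0.064. Gins3 was called higher without Ctrl replicate 2 (adjusted p = 0.047, range 0.029 to 0.24 over all alternatives) and with array weights. Gins1 was called higher with array weights only (limma adjusted p = 0.040, range 0.040 to 0.24). Gins4 differed by 0.06 and Gins2 by -0.08, and 67.3% of the Gins2 exon length is shared with Gse1 on the opposite strand, so the reads of these genes may not be told apart.

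Both primase genes rose, as did Wdhd1, while the genes for the polymerase alpha subunits missed the threshold. Prim1, the catalytic primase subunit that makes the RNA primer (ENSMUSG00000025395, chromosome 10, 128015168 to 128030037), stood at 2468, 2307, 2137 and 2290.2 in Ctrl and at 2996, 3000.1, 2848 and 2893 in Hypo. The gap between the groups was wider than the range within Hypo. The mean rose from 2301 ± 135 to 2934 ± 75.9 (SD, n = 4), a 1.28-fold rise with a difference of 0.32 ± 0.05 and a limma adjusted p of 5.4e-04, and it was called in all 21 alternatives. Prim2, the regulatory primase subunit, went from 1298 ± 41.8 to 1481 ± 43.8 (difference 0.16, limma adjusted p = 0.022), and this call was lost without Ctrl replicate 2 (adjusted p = 0.074) or Hypo replicate 3 (adjusted p = 0.071). Wdhd1, also called And-1, which ties polymerase alpha to the helicase, went from 1949.6 ± 197 to 2272 ± 85.3 (difference 0.20, limma adjusted p = 0.042). Leaving out Ctrl replicate 1, Ctrl replicate 2, Hypo replicate 2, Hypo replicate 3, Hypo replicate 4 or Hypo replicate 5 ended the Wdhd1 call, with adjusted p of 0.057, 0.075, 0.052, 0.11, 0.083 and 0.073. Median centering and the replicate block ended it too.

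Pola1, the catalytic subunit of polymerase alpha, stood at 4633, 4501, 4861 and 4277 in Ctrl and at 5289, 5216, 5135 and 4712 in Hypo. Only Hypo replicate 5 fell within the Ctrl range, and the difference of 0.15 did not pass (limma adjusted p = 0.062). It was called higher without Ctrl replicate 3 (adjusted p = 0.017) and without Hypo replicate 5 (adjusted p = 0.026), within a range of 0.0035 to 0.18 over all alternatives. Pola2, the accessory subunit, stood at 4110.5 ± 201 and 4435 ± 111, with groups that did not overlap and a limma adjusted p of 0.13.

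Of the leading- and lagging-strand polymerases, the 2 catalytic subunits rose and the 3 accessory subunits in the set did not pass. Pold4, Pole3 and Pole4, outside the set, did not pass with all libraries, but Pole3 was lower without Ctrl replicate 3 (limma adjusted p = 0.045). Pold1, the catalytic subunit of polymerase delta, stood at 2854, 2715, 3443 and 2901 in Ctrl and at 3994, 3366, 3826 and 3665 in Hypo. Here Ctrl replicate 3 was the highest Ctrl library, at 122% of the mean of the others, and it overlapped Hypo replicate 3. The 1.25-fold rise (difference 0.30 ± 0.07) had a limma adjusted p of 0.010, and the difference was 0.36 without Ctrl replicate 3 (adjusted p = 3.4e-04, range 2.7e-04 to 0.14 over all alternatives). Pole, the catalytic subunit of polymerase epsilon, went from 4711 ± 143 to 5374 ± 296 (difference 0.18, limma adjusted p = 0.019), a call that was lost without Ctrl replicate 2, Ctrl replicate 4, Hypo replicate 2 or Hypo replicate 3 (adjusted p of 0.064, 0.058, 0.065 and 0.056). Pold2 (2872 ± 94.97 and 3066 ± 107), Pold3 (1668 ± 49.2 and 1818 ± 85.8) and Pole2 (523 ± 13.8 and 569.6 ± 32.8) differed by 0.09 to 0.11 with limma adjusted p of 0.12 to 0.25.

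Of the clamp and its loaders 5 of 7 genes rose (4 of 7 without Ctrl replicate 3). Rfc3, a small subunit of replication factor C, the complex that opens Pcna and places it on DNA (chromosome 5, 151642756 to 151651242), stood at 1289, 1102, 1022 and 1213 in Ctrl and at 1534, 1548, 1386 and 1522 in Hypo. Rfc4, another small subunit (chromosome 16, 23113943 to 23127737), stood at 1514, 1509.7, 1472 and 1297 in Ctrl and at 1891, 1895, 1801 and 1688 in Hypo. In neither gene did the groups overlap, and both calls held in all 21 alternatives. Rfc3 rose 1.29-fold (difference 0.32 ± 0.06, limma adjusted p = 0.0037) and Rfc4 rose 1.26-fold (difference 0.29 ± 0.06, limma adjusted p = 0.0034).

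Rfc1, the large subunit, stood at 6072, 5941, 6062 and 6094 in Ctrl and at 6818, 6930.2, 6844 and 6848 in Hypo. This 1.14-fold rise was small but well separated, since each group spanned a far narrower range than the gap between them (difference 0.18 ± 0.04, limma adjusted p = 0.0055). Dscc1, part of an alternative loader that links the clamp to sister chromatid cohesion, had the lowest level of all 45 genes and stood at 220.3, 178, 177 and 208 in Ctrl and at 264, 274, 272 and 270.5 in Hypo (limma adjusted p = 0.0048). Its 1.38-fold rise corresponded to a difference of 0.26 on the transformed scale, which compresses low genes, and quantile normalization ended the call with an adjusted p of 0.065, the highest of all alternatives (lowest 2.5e-04).

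Rfc5 went from 2561 ± 283 to 3036 ± 238 with overlapping groups (limma adjusted p = 0.048). The Rfc5 call was lost without Ctrl replicate 2, Ctrl replicate 3, Ctrl replicate 4, Hypo replicate 2, Hypo replicate 3 or Hypo replicate 5 (adjusted p of 0.083, 0.059, 0.084, 0.078, 0.13 and 0.11). A minimum count of 50, median centering, limma without trend, the replicate block and edgeR without Ctrl replicate 3 ended it too. Rfc2 (2827 ± 118 and 2967 ± 45.5) did not pass. Pcna, the clamp itself and the most abundant of the 45 genes per kb of exon (2739 in Ctrl and 3073 in Hypo), stood at 7203, 6630.0, 5219 and 7237 in Ctrl and at 7364, 7528, 6985 and 7621 in Hypo. Ctrl replicate 3 was the lowest of the 8 libraries, the groups overlapped, and the difference of 0.17 (95% interval -0.02 to 0.36) had a limma adjusted p of 0.18 and was 0.07 without that library.

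**Figure D3:**
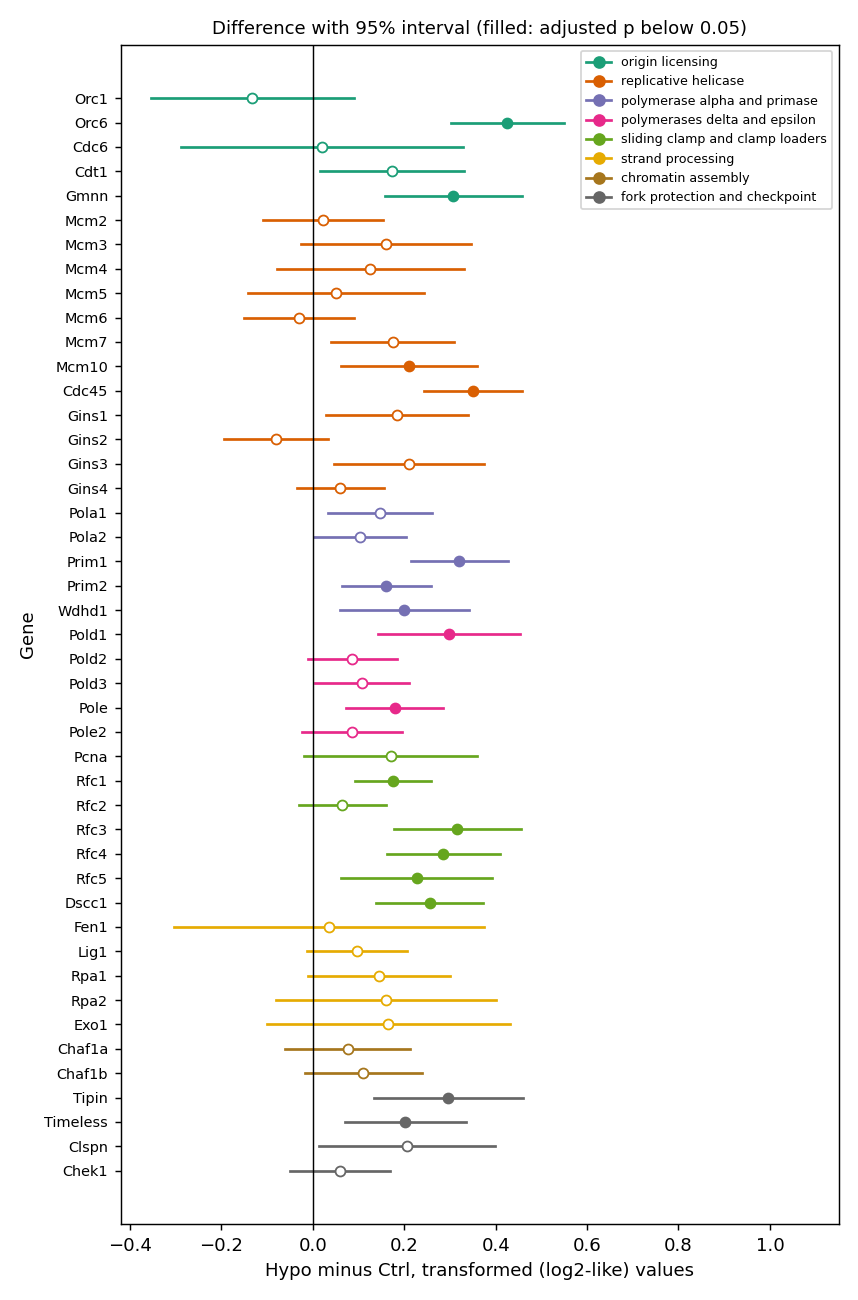
Hypo minus Ctrl difference of each of the 45 genes on the transformed scale (x axis) with its 95% interval, grouped and colored by role. Filled points passed the test at an adjusted p below 0.05: the 16 filled points all lie to the right of 0, and Orc6 lies farthest right at 0.43.

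Genes that process the new strands or cover single-stranded DNA did not pass on the deposited values. Fen1, the flap nuclease that trims Okazaki fragments, Lig1, the ligase that joins them, the single-strand binding subunits Rpa1 and Rpa2, and the exonuclease gene Exo1 were called by none of limma, edgeR and DESeq2, and none reached an unadjusted p below 0.05. After quantile normalization Lig1 (limma adjusted p = 0.021, range 0.021 to 0.46 over all alternatives) and Rpa1 (limma adjusted p = 0.036, range 0.036 to 0.34) were called higher. Ctrl replicate 3 was the lowest of the 8 libraries in all 5. Fen1 stood at 3266, 2969, 1937 and 3355 in Ctrl and at 2711, 3008, 2326 and 3716 in Hypo. It varied more within groups than between them, and its difference was 0.04 (95% interval -0.30 to 0.38) with all libraries and -0.13 without Ctrl replicate 3. Of the Fen1 exon length 78.8% is shared with Gm10143 on the opposite strand. Rpa1, closest to a call among the 5, stood at 5905 ± 654 and 6533 ± 263 (limma adjusted p = 0.17), and Lig1, the most abundant per kb of exon (1207 and 1294), at 5152 ± 309 and 5524 ± 165. The chromatin assembly genes Chaf1a (4534 ± 295 and 4799 ± 390) and Chaf1b (1688 ± 150 and 1839.6 ± 68.2), whose products place histones behind the fork, did not pass either (limma adjusted p = 0.42 and 0.20), and 52.5% of the Chaf1a exon length is shared with Ubxn6 on the opposite strand.

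Among fork protection genes, the pair Tipin and Timeless rose. Tipin, which binds Timeless at the fork (chromosome 9, 64281581 to 64305424), stood at 2516, 2435, 2030.4 and 2629 in Ctrl and at 2717, 3047, 2987 and 3264 in Hypo. The groups did not overlap, and the 1.25-fold rise (difference 0.30 ± 0.07) had a limma adjusted p of 0.013. Timeless went from 1575 ± 98.0 to 1851 ± 144 with overlapping groups (difference 0.20, limma adjusted p = 0.031), and the call was lost without Ctrl replicate 1, Ctrl replicate 2, Hypo replicate 2, Hypo replicate 3 or Hypo replicate 5 (adjusted p of 0.058, 0.080, 0.098, 0.074 and 0.063). Clspn, the adaptor that passes the fork signal to Chek1, stood at 2404, 2163, 1713 and 2430.4 in Ctrl and at 2378, 2553, 2473 and 2734 in Hypo. It overlapped between the groups and did not pass (difference 0.21, limma adjusted p = 0.12, and 0.11 without Ctrl replicate 3). The checkpoint kinase gene Chek1 stood at 2205 ± 111 and 2308 ± 108 (limma adjusted p = 0.43).

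The library Ctrl replicate 3 bore on these values unevenly. It was the lowest of the 8 libraries in 31 of 45 members, as it was in 18.7% of all tested genes, and it was below 70% of the other Ctrl libraries in Cdc6 (55.4%), Fen1 (60.6%), Exo1 (62.5%), Rpa2 (65.3%) and Orc1 (68.6%). The summed normalized counts of the 45 genes were 147191, 137191, 125384 and 147010 in Ctrl and 151614, 155116, 149066 and 160296 in Hypo. In this sum each Hypo library exceeded each Ctrl library, Ctrl replicate 3 was the lowest, and the ratio of the group means was 1.11. Without Ctrl replicate 3 the median difference of the members was 0.11 in place of 0.16, and 38 in place of 42 of the 45 differences were above 0, where 51.2% of all tested genes were above 0. The 14 genes that kept their calls without it were Orc6, Gmnn, Cdc45, Prim1, Prim2, Wdhd1, Pold1, Pole, Rfc1, Rfc3, Rfc4, Dscc1, Tipin and Timeless. The stress genes that were high in this library moved with it, and their part in the values of the replication genes was not tested.

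**Figure D4:**
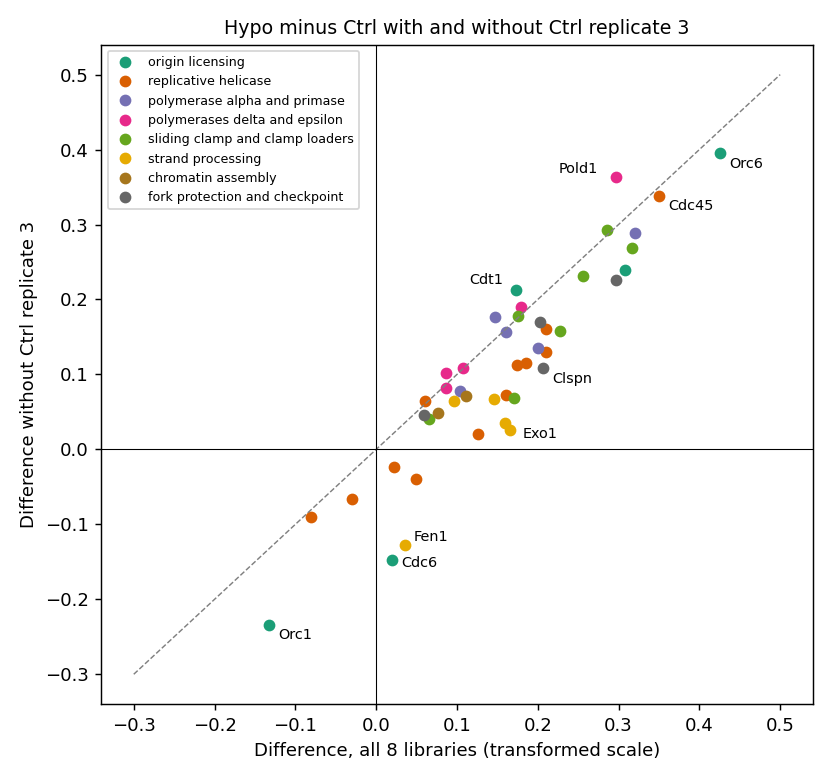
Hypo minus Ctrl difference of each gene with all 8 libraries (x axis) against the difference without Ctrl replicate 3 (y axis), both on the transformed scale, with equality as a dashed line. Fen1, Cdc6, Mcm2 and Mcm5 change sign, Orc1 moves from -0.13 to -0.23, and Orc6, Cdc45 and Pold1 have the highest values on the y axis.

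Further replication genes, from a textbook list of 39, moved in both directions. All 39 were tested, and 6 rose and 1 fell, so that the share of rises was near the 14.1% of all tested genes (8.75% fell). The median difference of the 39 genes was 0.06. Without Ctrl replicate 3, 9 rose and 7 fell, where 17.4% of all tested genes rose and 13.3% fell. The kinase subunits that fire origins went in opposite directions. Cdc7, the catalytic subunit, stood at 1509, 1667, 1593 and 1576 in Ctrl and at 1687, 1940.1, 2078 and 1822 in Hypo (1.19-fold higher, limma adjusted p = 0.023). Dbf4, the subunit that activates Cdc7, stood at 5751, 5186, 5890.2 and 5558 in Ctrl and at 4716, 4956, 4800.2 and 4888 in Hypo (1.16-fold lower, limma adjusted p = 0.010). The groups overlapped in neither gene. The others that rose were Mcm8 (1.305-fold), a helicase relative that acts in repair, the fork stability gene Donson (1.22-fold), the helicase gene Recql4 (1.20-fold), the clamp unloader gene Atad5 (1.20-fold) and the topoisomerase gene Top2a (1.16-fold).

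Genes around the start of S phase did not move together. Of 13 E2F and Rb family genes 2 rose and 2 fell, which for the rises is near the 14.1% of all tested genes (8.75% fell). Rbl1, which encodes the pocket protein p107, stood at 2991, 2734, 2500.4 and 2890.3 in Ctrl and at 3709.6, 3999.9, 3462 and 3822 in Hypo, a 1.35-fold rise without overlap (limma adjusted p = 5.1e-04), and the dimer partner gene Tfdp2 rose 1.17-fold. E2f4 fell from 4493, 4302, 4607 and 4686 in Ctrl to 3665, 3475, 3507 and 4187 in Hypo, 1.22-fold lower (limma adjusted p = 0.0056), and E2f3 was 1.22-fold lower with overlapping groups. Of 12 G1 and S cyclins, kinases and inhibitors, 1 rose and 4 fell. The inhibitor gene Cdkn1a, also called p21, rose 1.78-fold (limma adjusted p = 6.4e-06), while the kinase gene Cdk6, the cyclin genes Ccnd1 and Ccnd2 and the inhibitor gene Cdkn1b fell 1.36-fold, 1.24-fold, 1.28-fold and 1.28-fold.

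Of 20 G2 and M phase genes 1 rose, the kinase gene Aurkb (1.18-fold), and 9 fell, where 14.1% of all tested genes rose and 8.75% fell. The falls were led by the mitotic activator Cdc20 (1.43-fold lower), the kinase gene Plk1 (1.36-fold lower) and the kinesin gene Kif20a (1.29-fold lower). The median difference of these 20 genes was -0.13, opposite in sign to the 0.16 of the replication genes. Of 12 p53 target genes 2 rose, Cdkn1a and Mdm2 (1.25-fold), a share near the 14.1% of all tested genes (3 rose and 3 fell without Ctrl replicate 3). Of the 16 stress response genes 1 rose and 1 fell. Without Ctrl replicate 3, 6 of them rose and 0 fell, where 17.4% of all tested genes rose and 13.3% fell. Whether these genes have a part in the replication gene values was not tested.

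Markers of other cell types also moved between the groups. The summed normalized counts of fibroblast markers were 2215 to 2599 in Ctrl and 2968 to 3651 in Hypo, those of immune cell markers 364 to 669 and 776 to 999.9, and those of endothelial markers 36.2 to 66.9 and 137 to 179. Of the tested markers 3 of 4, 2 of 4 and 2 of 3 rose and 0 fell, where 14.1% of all tested genes rose and 8.75% fell. The tested immune markers did not all move the same way: 3 of 4 differences were above 0, and the lowest was -0.08. No marker in the tables was at 0 in all libraries. Over the 8 libraries the fibroblast markers Pdgfra and Col1a1 ran from 1792 to 2442 and from 376 to 1171 normalized counts. Pdgfra, the most abundant of them, did not pass (limma adjusted p = 0.17). The other fibroblast markers were lower, with Col1a2 at 23.5 to 174, Pdgfrb at 2.72 to 26.6, Thy1 at 0 to 16.6 and Dcn at 0 to 7.87. The immune markers Cd68 and Csf1r ran from 228 to 781 and from 103 to 343, Ptprc from 8.15 to 39.3 and Itgam from 0 to 4.63. Of the endothelial markers Cdh5, which rose 4.83-fold, ran from 11.3 to 93.4 and Pecam1 from 5.43 to 23.1. The markers Col3a1, Lum, Cd3e, Adgre1 and Emcn were not analysed here. The part of other cells in the replication gene values was not tested. Exons of 15 of the 45 genes overlap a gene on the opposite strand, 8 of them among the genes that rose, and among those the overlap was at most 12.7% of exon length (Rfc4 with Eif4a2).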

How the data were processed

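RNA of 8 libraries of 4T1 cells (Ctrl, n = 4; Hypo, n = 4) was analyzed, grouped by sample title. According to the methods, stranded libraries were made from polyadenylated RNA, and reads were trimmed, aligned to GRCm38 with STAR and counted per gene. The submitters' processing notes name bcl2fastq, STAR, HTSeq and DESeq2, without versions. Whether reads were counted by strand is not stated in the sources used here. The authors deposited normalized counts (a signal made by dividing reads by a size factor, 23606 genes) and variance-stabilized, log2-like values (27336 genes). Columns of the authors' own comparison (mean expression, log2 fold change, its error, Wald statistic and p-values) were not used. All normalized counts were whole multiples of 1 read within a tolerance of 0.01, which gave back the reads.

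The 23215 genes in both tables were reduced to 15746 whose normalized counts averaged 10 or more. Hypo was compared with Ctrl with limma 3.58.1 (R 4.3.3; empirical Bayes with trend, two-sided) on the deposited log2-like values, with Benjamini-Hochberg adjustment over all tested genes and a call at an adjusted p below 0.05. Levels are mean ± SD of normalized counts, folds are ratios of group means, and differences are given with SE. Where the libraries of a group are not separate cultures, p-values measure technical spread. The limma and edgeR fits were tested on simulated data. The members and gene lists were chosen with earlier results of these data known. Named with values were members called with all libraries or without Ctrl replicate 3, the uncalled member of each role with the smallest p and that of the highest level, members a result turned on, and the called genes of each list with the smallest p. The alternatives were filters, pseudocounts of 1 and 5, median centering, quantile normalization, removal of GC and length trends, limma without trend or with array weights, a replicate block, each library left out, and edgeR 4.0.16 and DESeq2 1.42.0 on the recovered reads. The edgeR fit without Ctrl replicate 3 was chosen after seeing the data. Gene positions and exon lengths are those of the matching GENCODE annotation of GRCm38. Promoter windows came from RefSeq.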

Additional observations from a re-analysis of the deposited data

Results flagged for a closer look

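In 2 of the 90 sets of 4 libraries (45 genes in each group), a single library lay far from the others by the 95% limit of Dixon's test. Chance alone gives about 1 in 20 such sets. Mcm6, a subunit of the helicase ring, stood at 9181 normalized counts in Hypo replicate 2 and at 9625 to 9687 in the other Hypo libraries. Rfc3, a clamp loader subunit, stood at 1386 in Hypo replicate 4 and at 1522 to 1548 in the others. Neither library is Ctrl replicate 3.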

How the results depend on the processing

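Over 21 alternatives for each of the 45 genes (945 comparisons), 860 kept direction and side of the threshold, 44 lost a call and 21 gained one. In 20 the sign turned, none of them called, and all in 5 genes. The sign of Cdc6 turned with array weights (-0.098), in edgeR (-0.0056), in edgeR without Ctrl replicate 3 (-0.17), in DESeq2 (-0.013) and without Ctrl replicate 3 or Hypo replicate 5, with -0.15 to 0.094 over the libraries left out. That of Fen1 turned with array weights (-0.070), under the replicate block (-0.010), in edgeR without Ctrl replicate 3 (-0.12) and without the same libraries (-0.13 to 0.13). Mcm2 turned with array weights (-0.011), in edgeR without Ctrl replicate 3 (-0.028) and without the same libraries (-0.023 to 0.063). Mcm5 turned with array weights (-0.00995), in edgeR without Ctrl replicate 3 (-0.042) and without Ctrl replicate 3 (-0.040 to 0.098 over all left out), and Mcm6 after quantile normalization (0.027) and without Ctrl replicate 4 (-0.066 to 0.0096). The cause was not tested.

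Members that rose numbered 10 to 16 with a library left out and members that fell 0 to 1, and the median difference ran from 0.11 to 0.18. Over all tested genes these fits called 2665 to 4838 genes, 1800 to 2743 higher and 852 to 2095 lower. A minimum of 50 left fewer genes to test and 1350 higher. Array weights gave 1 member lower (Orc1) and 5952 genes, 2673 of them lower, and edgeR without Ctrl replicate 3 gave 1 member lower and 2193 genes lower.

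The replicate numbers showed no sign of pairing. Deviations of same-numbered libraries from their group means correlated at -0.173, -0.257 and -0.217 over 11293 genes, and no library correlated best with its own number. Such deviations cancel within a group, and Ctrl replicate 3 lay far from the other Ctrl libraries, so these correlations cannot exclude pairing. With the replicate block, which used the 6 libraries of shared number, 7 members rose, and 1609 genes were called (1286 higher and 323 lower). The calls of Mcm10, Pold1, Pole, Prim2, Rfc1, Rfc5, Timeless, Tipin and Wdhd1 were lost there. Rises were called in all 21 alternatives for Orc6, Gmnn, Cdc45, Prim1, Rfc3 and Rfc4, and for Pold1, Rfc1 and Tipin in all but the replicate block.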
